A study of Homo sapiens with 11 samples.

Results

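The clustered protocadherins are a family of cell-surface adhesion proteins encoded by genes that stand side by side in 3 clusters, PCDHA (α), PCDHB (β) and PCDHG (γ), on the long arm of chromosome 5. The genes examined here are all those of the deposited count tables that lie on chromosome 5 and whose GENCODE 44 symbol begins with PCDHA, PCDHB or PCDHG followed by a letter or digit. They number 53 of 23167 gene identifiers, of which 15 are PCDHA, 16 are PCDHB and 22 are PCDHG genes. GENCODE 44 has 61 such entries on this chromosome, and the other 8 have no row in the count tables.

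RNA was measured in MDA-MB-231, an established human line of triple-negative breast cancer cells, in 2 WT and 2 mH2A1.1 KD libraries. KD cells received siRNA against mH2A1.1, a splice variant of the histone macroH2A1, at 11 nM and were collected on day 3, and WT cells received the transfection reagent with no siRNA. Chromatin of WT cells was immunoprecipitated with a custom polyclonal antibody against mH2A1.1 or with an antibody against total mH2A1, in 1 library each, so peaks have no replicate and no KD counterpart. The comparisons ask whether the level of these genes differed between WT and KD cells, and where peaks of the histone lay across the clusters.

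Each variable exon of these genes has its own promoter and encodes the extracellular cadherin repeats, the transmembrane segment and part of the cytoplasmic tail of 1 protein. In the α and γ clusters, each variable exon is spliced to a set of constant exons shared by the whole cluster, which encode the common end of the tail, whereas β genes consist of a single variable exon each. In neurons, stochastic choice among the variable promoters, aided by the insulator protein CTCF and by cohesin, gives each cell its own set of adhesion proteins, which bind like copies on neighbouring cells. The last members of the α and γ clusters, the C types, are regulated differently from the others, and most variable promoters carry a conserved element that holds the letters CGCT and is bound by CTCF.

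The whole array ran from chr5:140786136-141512977 on GRCh38, a length of 726842 bp, with every member on the plus strand. PCDHA occupied chr5:140786136-141012347, PCDHB chr5:141051374-141249365 and PCDHG chr5:141330514-141512977. TAF7, a subunit of the general transcription factor TFIID, and SLC25A2, a mitochondrial ornithine carrier, lay between the β and γ clusters.

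The letters CGCT were found near the start of nearly all members with a promoter window, and the letters around them differed by cluster. RefSeq windows of 300 bases, 250 before and 50 after the start, on GRCh38.p14 were at hand for 47 of the 53 members, in 52 windows. CGCT on the gene strand was present in 51 of 52 of them, or 98.1%, and in 54.3% of all 35116 windows, and on either strand in 98.1% and 70.0%. For each cluster the string of 10 letters with CGCT that most of its windows shared was then sought, so that the members' own share rests on that choice. TGATGTCGCT was in 8 of 11 windows of the numbered α genes, against 0.0256% of all windows on the gene strand and 0.0342% on either strand. GGTGGCGCTG was in 12 of 14 β windows, against 0.179% and 0.276%. GCGCCGCTGT was in 10 of 22 windows of PCDHGA and PCDHGB genes, against 0.0797% and 0.131%. The shorter CGCTGT, which this string contains, was in 17 of the 22, against 5.95% and 11.2%. The shares of all windows include the members' own. On the gene strand, members made up 8 of the 9 windows with TGATGTCGCT, 12 of 63 with GGTGGCGCTG and 10 of 28 with GCGCCGCTGT.

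The following stretches of 30 bases were chosen to set members with few or no reads beside the members with the highest levels of the β and γ clusters, with PCDHGA11 and 2 C types added. They are written 5′ to 3′ on the plus strand of GRCh38. Capitals mark the string found, which is the cluster's own string of 10 letters where present and otherwise CGCTGT or CGCT. Where the string occurred more than once in a window, its last match is shown. CGCT occurred 3 times in the PCDHAC1 window, so the stretch printed for it may not be the conserved element.
PCDHA1 (chr5:140786089-140786118): ggccacaTGATGTCGCTgtacaccacaaag
PCDHA12 (chr5:140875247-140875276): agtcacaTGATGTCGCTctacactcagaag
PCDHB2 (chr5:141094547-141094576): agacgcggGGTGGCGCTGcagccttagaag
PCDHB8 (chr5:141177780-141177809): ggacccgtGGTGGCGCTGcaggataagaag
PCDHB13 (chr5:141213868-141213897): ggacgcgtGGTGGCGCTGcaggataagaag
PCDHB15 (chr5:141245317-141245346): caacgcatGGTGGCGCTGcaggctaaggct
PCDHGA3 (chr5:141343770-141343799): ggcctcttagtgtCGCTGTtgaccactcaa
PCDHGB1 (chr5:141350028-141350057): aacctctggGCGCCGCTGTcgaccaaaagg
PCDHGB2 (chr5:141359924-141359953): aacctctgagcgtCGCTGTtggtcaaaaga
PCDHGA11 (chr5:141420975-141421004): gggctctaggcgcCGCTgctcaccaatcag
PCDHGC3 (chr5:141475883-141475912): ggactctgtgtgcCGCTGTcggccaatgaa
PCDHAC1 (chr5:140926272-140926301): ctcggcagctccaCGCTgagtcccgccctc
The stretches of PCDHB13 and PCDHB8 were identical at 29 of 30 bases and those of PCDHB13 and PCDHB2 at 25 of 30. These 3 genes differed widely in level, as given below. The position of CGCT relative to the RefSeq start was −38 bp for PCDHB13, −55 bp for PCDHB2 and 3 bp for PCDHB8. The level of PCDHB8 is uncertain, since stretches of 50 bases that recur in the array made up 47.1% of its exons. The base composition of the windows differed by type. The median GC content was 36.0% for numbered α genes, 40.8% for β genes, 38.3% for PCDHGA, 50.0% for PCDHGB and 62.3% for the C types, and 58.7% over all windows.

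The libraries differed in depth. The deeper WT library, replicate 1, totalled 9794674 gene counts and replicate 2 had 7856892, while KD replicate 1 had 5584962 and KD replicate 2 only 2309549. The study lists a lower share of uniquely mapped reads for KD replicate 2 than for the other RNA-seq libraries. KD replicate 2 stood apart: it had 30 counts on chromosome 21 and none on chromosomes 22 and X, so the genes of these 3 chromosomes were left out of the test, and the calls of members, the cluster sums and the fold changes of most named genes of the lists are given also without it. MACROH2A1, the gene that encodes both splice variants of macroH2A1, stood at 385 and 394 CPM (counts scaled by library size) in WT and at 274 and 300 CPM in KD, which does not check the targeted variant on its own. Vimentin, CD44 and EGFR, keratins 8 and 18 and EPCAM, markers set for this line, summed to 5159 and 5444 CPM in WT and to 6307 and 8875 CPM in KD. Of 4 genes set as low in this line, ESR1 and PGR had no count, and the sum of the 4 genes, 82.3 and 82.7 CPM in WT and 87.3 and 130 CPM in KD, came mostly from ERBB2. Of 6 neuronal and glial markers, SYP lies on chromosome X and has no CPM here, with 14 and 3 counts in WT and 5 and 0 in KD. The others summed to between 11.6 and 16.1 CPM in each library, mostly from MAP2 and GFAP. Across genes, log2 CPM correlated at 0.994 (Pearson r) between the WT libraries and at 0.959 between the KD libraries. Nothing in the labels says whether replicates came from separate cultures, so p-values measure only how far these libraries spread.

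Reads of the α and γ genes that fall on constant exons cannot be assigned to a single gene, so the levels given here rest on each gene's own exons. The α constant exons were chr5:140978949-140979007, chr5:140982475-140982563 and chr5:141009627-141012347, and the γ constant exons chr5:141494807-141494865, chr5:141505393-141505481 and chr5:141510947-141512975. Bases shared with another gene made up between 19.2% and 56.6% of the exon length of an α gene, between 27.5% and 64.4% of that of a γ gene, and 0% of that of a β gene. The counts of α and γ genes are therefore incomplete, and CPM per kb, used below to compare genes, divides by own exon length alone. Members also resemble each other in sequence: stretches of 50 bases that recur in the array made up a median of 14.8% of a β gene's exons, with a highest value of 47.1%, which makes their counts uncertain where the authors' filter on mapping quality removed such reads.

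The α cluster had almost no reads in either condition. All 15 PCDHA genes together held 1 and 2 counts in WT and 3 and 1 counts in KD. Of them, 9 had no count in any library, which allows a level of up to 0.125 CPM over the 4 libraries (3 counts, counting error only), and none of the others had more than 1 count in a library. Among those with a count were PCDHAC1 and PCDHAC2, the C types of the cluster, each with a single count, PCDHAC1 in KD replicate 1 and PCDHAC2 in WT replicate 2. Of all genes in the count tables, 30.3% had no count.

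In the β cluster, reads came from a run of neighbouring genes in its second part. The 7 genes from PCDHB1 to PCDHB7 held 42 counts in all, and none exceeded 0.132 CPM per kb in WT. PCDHB1, which stands apart from the rest of the cluster, had 1 count in WT replicate 1 and 0 in the other libraries. The 8 genes from PCDHB8 to PCDHB14, with PCDHB16 among them by position, held 96.7% of the β counts of WT. The last gene of the cluster, PCDHB15, was again low, at 13 and 5 counts in WT and 4 and 0 in KD.

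PCDHB13 was the highest β gene and held 45.8% of the cluster's WT counts. It had 359 and 269 counts in WT and 161 and 56 in KD, or 7.23 ± 0.33 CPM per kb in WT (SD, n = 2) and 5.62 ± 0.55 in KD. The KD libraries both lay below the WT libraries, with a log2 fold change of −0.35 (SE 0.20) and an adjusted p of 0.299 in edgeR's quasi-likelihood test. PCDHB14 had 148 and 107 counts in WT and 76 and 25 in KD, with overlapping CPM. PCDHB11 had 108 and 69 counts in WT and 48 and 13 in KD, and here too both KD libraries were the lower ones in CPM. PCDHB12, at 58 and 27 in WT and 26 and 4 in KD, overlapped between the conditions.

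The other tested β genes had few reads. PCDHB10 had 40 and 29 counts in WT and 24 and 10 in KD, and PCDHB9 had 30 and 18 in WT and 17 and 8 in KD. In CPM, both KD libraries lay above both WT libraries for these 2 genes, with log2 fold changes of 0.19 (SE 0.30) and 0.28 (SE 0.36). PCDHB16 had 21 and 15 counts in WT and 11 and 4 in KD. PCDHB8 had 16 and 12 counts in WT and 14 and 3 in KD. Both overlapped between WT and KD.

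In the γ cluster, the first 3 genes were low and the highest levels followed directly after them. PCDHGA1 had 20 and 15 counts in WT and 16 and 3 in KD, PCDHGA2 had 11 and 14 in WT and 12 and 1 in KD, and PCDHGA3 had 5 and 2 in WT and 3 and 3 in KD. PCDHGB1, the next gene, had 172 and 136 counts in WT and 98 and 38 in KD. PCDHGB2 was the highest member of the whole array in each of the 4 libraries, at 224 and 196 counts in WT and 149 and 48 in KD. Its level was 9.36 ± 0.59 CPM per kb in WT (SD, n = 2) and 9.64 ± 1.47 in KD, above 58.1% of all genes tested in WT, and it was the only tested member above the median of 7.30 CPM per kb of those genes. The 7 genes from PCDHGB1 to PCDHGA7 held 63.2% of the γ counts of WT.

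Within that run, PCDHGA4 had 119 and 87 counts in WT and 60 and 19 in KD, and each KD library was below each WT library in CPM. PCDHGA5 had 106 and 92 counts in WT and 58 and 26 in KD, and PCDHGB3 had 96 and 64 in WT and 46 and 16 in KD, with overlapping CPM. PCDHGA6 had 163 and 86 counts in WT and 83 and 19 in KD. Its CPM differed between the 2 replicates of each condition by more than the means of WT and KD did. PCDHGA7 had 88 and 62 counts in WT and 36 and 13 in KD, with both KD libraries lower.

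Farther along the cluster, levels were between 0.92 and 1.85 CPM per kb in WT. PCDHGB4 had 40 and 29 counts in WT and 14 and 9 in KD, PCDHGA8 70 and 42 in WT and 42 and 11 in KD, and PCDHGB5 64 and 25 in WT and 28 and 3 in KD. All 3 overlapped between the conditions. PCDHGA9 had 45 and 18 counts in WT and 25 and 15 in KD, with the highest log2 fold change of the tested members, 0.61 (SE 0.43), and also overlapped. PCDHGB6 had 65 and 38 counts in WT and 36 and 11 in KD, PCDHGA10 72 and 36 in WT and 29 and 6 in KD, and PCDHGB7 40 and 29 in WT and 17 and 11 in KD. These 3 overlapped as well. PCDHGA12 had 25 and 18 counts in WT and 10 and 5 in KD, with both KD libraries lower in CPM.

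The γ C types were unequal in level. PCDHGC3, a C type known to be expressed in many tissues besides the brain, was the highest of them at 2.47 ± 0.16 CPM per kb in WT (SD, n = 2), with 73 and 64 counts in WT and 34 and 30 in KD. Its KD libraries lay on either side of WT. PCDHGC4 had 9 and 5 counts in WT and 6 and 2 in KD. PCDHGC5 had 22 and 12 counts in WT and 6 and 2 in KD, and both KD libraries were lower, with a log2 fold change of −0.86 (SE 0.51, adjusted p = 0.310 in edgeR). Compared by type, the median WT level was 1.34 CPM per kb over 12 PCDHGA genes, 1.85 over 7 PCDHGB genes and 0.683 over 3 PCDHGC genes.

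**Figure D1:**
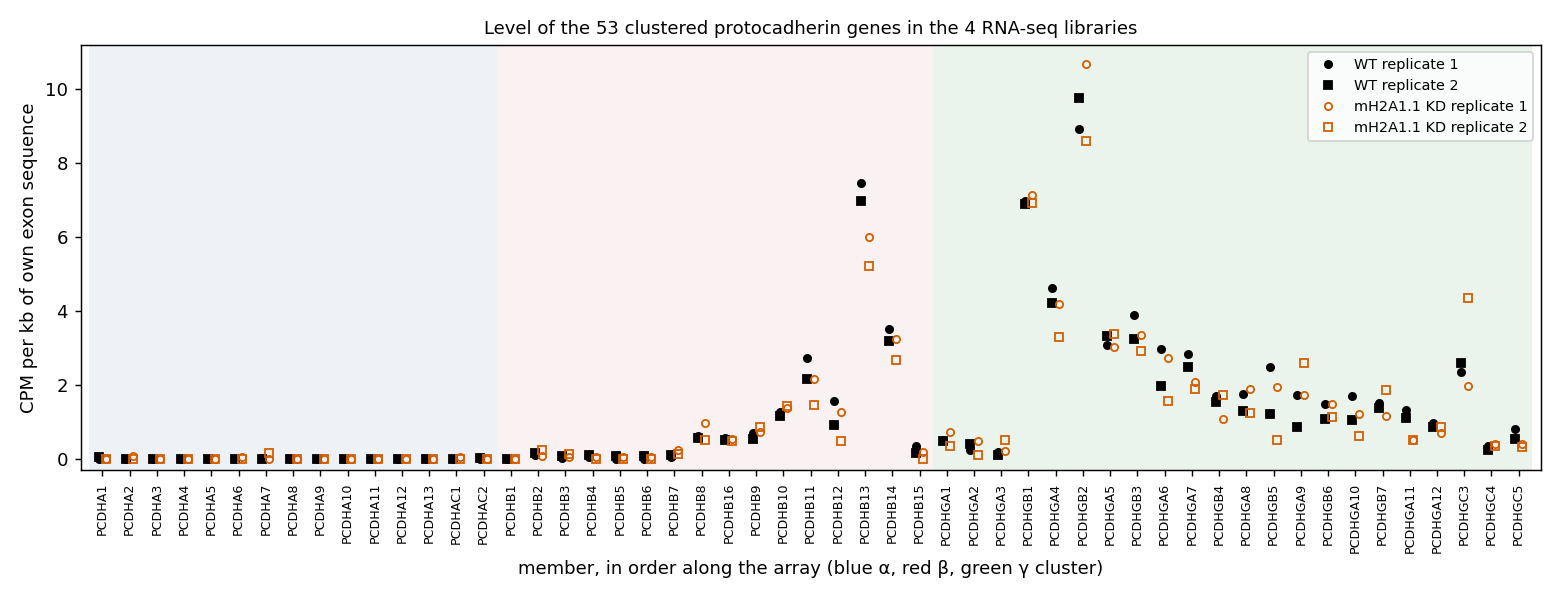
Level of each of the 53 members (horizontal axis, in order along the array) in the 4 RNA-seq libraries, in CPM per kb of own exon sequence (vertical axis); filled symbols are WT and open symbols KD, circles replicate 1 and squares replicate 2. The 15 α genes lie at or near 0, and the highest members are PCDHGB2, PCDHB13 and PCDHGB1.

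The summed level was close in WT and KD for the γ cluster and somewhat lower in KD for the β cluster. The α cluster held too few counts for a ratio. β counts summed to 803 and 568 in WT and 392 and 127 in KD, or 79.6 ± 6.92 CPM in WT and 67.0 ± 9.93 CPM in KD (SD, n = 2), a log2 ratio of −0.25. Both KD libraries, at 74.1 and 60.0 CPM, lay below the lower WT library at 74.7 CPM. γ counts summed to 1575 and 1101 in WT and 818 and 295 in KD, or 155 ± 14.8 and 147 ± 10.7 CPM, a log2 ratio of −0.08 with overlapping libraries. Without PCDHB13, its highest gene, the β cluster had a ratio of −0.16. Without KD replicate 2 the ratios were −0.10 for β and −0.01 for γ, and without WT replicate 1 the γ ratio turned to 0.02. In bulk RNA, fewer cells with a transcript and less of it per cell cannot be told apart.

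No member passed the thresholds between WT and KD, which asked for a fold change over 1.5 at an adjusted p under 0.1 in edgeR's quasi-likelihood test. The filter on low counts let through 28 members, which were 8 PCDHB and 20 PCDHG genes, and no PCDHA gene. Of these, 0 were called, against 0% (0 of 10963) of all genes tested, where the lowest adjusted value was 0.176. Of the 28, 1 had an unadjusted p under 0.05, against 23.2% of all genes tested. The 25 members that did not pass the filter held at most 22 counts each over the 4 libraries, 8 of them in the β cluster and 2, PCDHGA3 and PCDHGC4, in the γ cluster. With DESeq2, the study's tool, 0 of the 3 members given an adjusted p (PCDHB13, PCDHGB1 and PCDHGB2) were called, against 11.3% of all genes given one.

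For 20 of the 28 tested members the difference between KD and WT was smaller than its SE, and for 1, PCDHGA11, it was over 2 SE. The same counts were not made over all genes tested, so these have no background. Log2 fold changes ran from −1.24 to 0.61 with a median of −0.09, and the median over all genes tested was 0.01. KD was lower for 17 members and higher for 11, and 49.4% of all genes tested were lower. With offsets for GC content and length, the split became 21 lower and 7 higher and the median −0.22. The median SE was 0.36 for members and 0.24 for all genes tested. The KD libraries both lay below WT for 7 of the 28 members, against 32.4% of all genes tested, and above them for 2, against 32.5%.

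PCDHGA11, whose promoter stretch is printed above, had the lowest log2 fold change of the tested members. It had 46 and 31 counts in WT and 10 and 4 in KD, or 1.23 ± 0.15 CPM per kb in WT (SD, n = 2) and 0.520 in both KD libraries. The groups did not overlap. Its log2 fold change was −1.24 (SE 0.37) with an unadjusted p of 0.013 and an adjusted p of 0.194 in edgeR, so it was not called. It was called by edgeR without KD replicate 2 (adjusted p = 0.0538), without the filter on low counts (0.0585), with a replicate block (0.0765) and with GC and length offsets (0.0738). In those settings 8.05%, 14.2%, 20.1% and 5.36% of all genes tested were called, and 5.31%, 7.4%, 10.4% and 3.17% were called as lower. It had no DESeq2 adjusted p, and its edgeR adjusted p ranged from 0.0538 to 0.980 over the alternatives.

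The calls also moved with the other KD library. Without KD replicate 1, which leaves the shallow and incomplete KD replicate 2 alone against WT, 6 members were called, against 41.8% of all genes tested. These were PCDHB12, PCDHGA6, PCDHGB5 and PCDHGA10, lower in KD replicate 2, and PCDHGA9 and PCDHGC3, higher in it. None of these 6 was called in any setting that kept KD replicate 1.

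**Figure D2:**
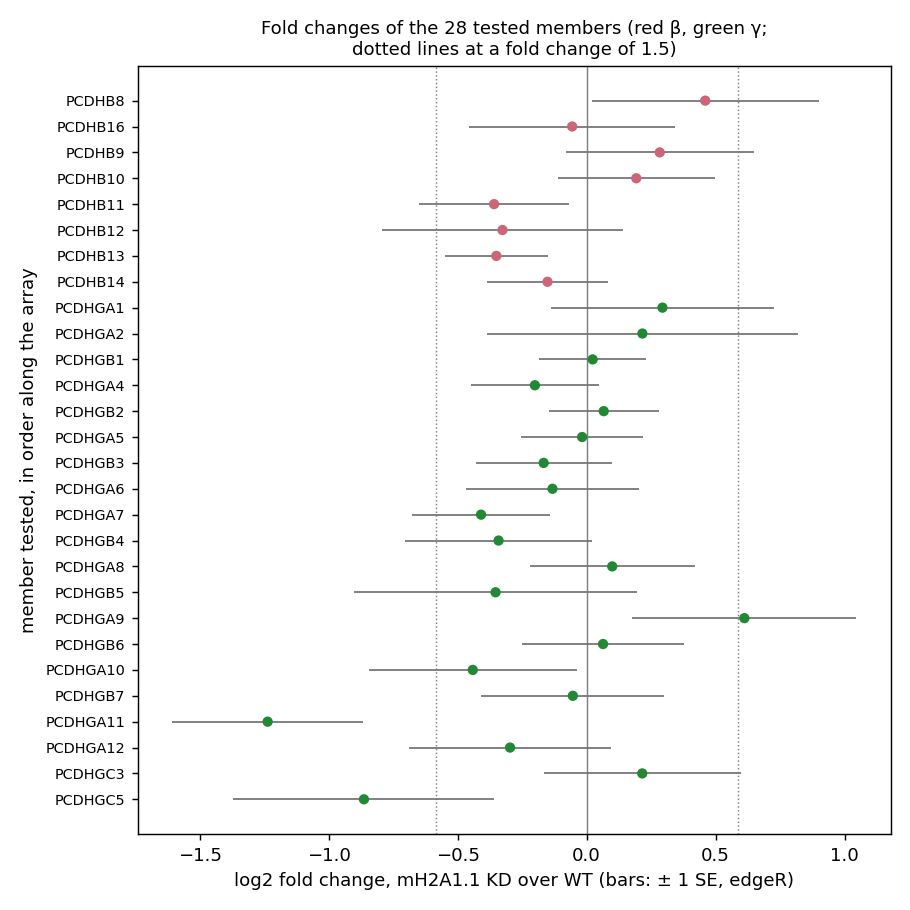
Log2 fold change of KD over WT (horizontal axis) of the 28 tested members (vertical axis, in order along the array), with bars of ± 1 SE derived from edgeR's F statistic and dotted lines at a fold change of 1.5. Values run from −1.24 for PCDHGA11 to 0.61 for PCDHGA9, and PCDHGA11, PCDHGC5 and PCDHGA9 lie beyond the dotted lines.

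Genes that act on the clusters or with their proteins were described from lists. None of the genes on these lists was called in edgeR, at a background of 0%. Of 20 tested regulators, among them CTCF, cohesin and its loaders, SMCHD1 and DNA methyltransferases, KD was lower for 13 and higher for 7, with a median log2 fold change of −0.38, and 5 of the 20 had an unadjusted p under 0.05, a share close to the 23.2% of all genes tested. RAD21, the cohesin subunit that closes its ring, stood at 445 and 479 CPM in WT and 345 and 238 CPM in KD, with a log2 fold change of −0.66 (SE 0.22, adjusted p = 0.194). LRIF1, a partner of SMCHD1, had a log2 fold change of −0.76 (SE 0.26), and DNMT3A, a de novo DNA methyltransferase, one of −0.63 (SE 0.25). WT exceeded KD in every library pair for all 3. CTCF itself stood at 87.8 and 91.4 CPM in WT and 80.9 and 78.0 CPM in KD (log2 fold change −0.17, SE 0.17). For RAD21 and LRIF1 the lower KD value was that of KD replicate 2, and DESeq2 called RAD21. Without that library the log2 fold changes were −0.42 for RAD21, −0.49 for LRIF1 and −0.60 for DNMT3A. With GC and length offsets they were −0.11, −0.28 and −0.90, and edgeR then called DNMT3A. SMC1A and STAG2, on chromosome X, were left out of the test.

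The proteins that work beside protocadherins gave a mixed picture. Of 11 tested intracellular partners, which include the kinases PTK2 and PTK2B that bind protocadherin tails and the WAVE complex that steers actin assembly, 6 were higher and 5 lower, with a median of 0.14. PTK2B stood at 11.5 and 14.1 CPM in WT and 25.7 and 34.5 CPM in KD, a log2 fold change of 1.21 (SE 0.25, adjusted p = 0.176), and DESeq2 called it. ABI2 and NCKAP1, subunits of the WAVE complex, had log2 fold changes of −0.49 (SE 0.19) and −0.41 (SE 0.20), which were −0.35 and −0.22 without KD replicate 2 and −0.26 and −0.03 with GC and length offsets. Of 7 tested classical cadherins and catenins, 5 were higher and 2 lower, with a median of 0.25. JUP, or plakoglobin, stood at 60.8 and 51.2 CPM in WT and 109 and 192 CPM in KD, a log2 fold change of 1.41 (SE 0.29, adjusted p = 0.176), and was called by DESeq2, CTNNB1 (β-catenin) was at 0.31 (SE 0.19), and CDH1 (E-cadherin), with 22 and 19 counts in WT and 2 and 5 in KD, at −1.28 (SE 0.68). CDH1 overlapped between the conditions. KD replicate 2, at 2.36 CPM, lay above WT replicate 1 at 2.31 CPM, and KD replicate 1 was at 0.378 CPM. The log2 fold change of CDH1 was −2.61 without KD replicate 2 and −0.03 without KD replicate 1, so its lower KD value rests on KD replicate 1. Without KD replicate 2, PTK2B, JUP and CTNNB1 were at 1.02, 0.96 and 0.16. With GC and length offsets edgeR called PTK2B, JUP and CTNNB1, at 0.89, 0.92 and 0.67.

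Protocadherins outside the clusters were described in the same way. Of 7 tested non-clustered protocadherins and FAT or Dachsous cadherins, 5 were higher and 2 lower in KD, with a median log2 fold change of 0.17. PCDH7 had 78 and 60 counts in WT and 53 and 39 in KD, PCDH9 had 70 and 30 in WT and 21 and 5 in KD, and PCDH1, which lies downstream of the array, had 173 and 116 in WT and 99 and 58 in KD. Their log2 fold changes were 0.73 (SE 0.33), −0.74 (SE 0.45) and 0.42 (SE 0.26). Without KD replicate 2 these were 0.32, −0.54 and 0.16, and with GC and length offsets 0.87, −0.23 and 0.0041.

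Genes around the array were taken as a chosen list of 16, which leaves out others of the flanks such as TMCO6 and DELE1. Of the 16, 13 passed the filter on low counts. Of these 13, 11 were higher and 2 lower in KD, with a median log2 fold change of 0.38, and 4 had an unadjusted p under 0.05, against 23.2% of all genes tested. NDUFA2, a subunit of respiratory complex I, had a log2 fold change of 0.82 (SE 0.28), WDR55 one of 0.61 (SE 0.20) and FCHSD1 one of 0.61 (SE 0.23), each with both KD libraries above WT. These were 0.43, 0.45 and 0.39 without KD replicate 2 and 0.45, 0.36 and 0.28 with GC and length offsets. TAF7, between the β and γ clusters, stood at 147 and 155 CPM in WT and 152 and 142 CPM in KD (log2 fold change −0.04, SE 0.17). SLC25A2 beside it had 1 and 3 counts in WT and 1 and 0 in KD.

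Peaks of the histone were few across the array. The peak lists were made in bins of 3 kb, and all peak widths in both lists were multiples of 3000 bp. A start site counted as being in a peak when the stretch from 500 bp before to 500 bp after it touched one. For mH2A1.1 this held for 2 of the 53 members, PCDHAC1 and PCDHGC5, against 37.8% of all genes of the count tables matched to GENCODE 44, 46.9% of the genes tested and 24.2% of the genes without a count. For total mH2A1 it held for 0 members, against 21.2%, 18.4% and 21.4%. No mH2A1.1 peak in the array overlapped a total mH2A1 peak, and 0 members had such a common peak, against 23.8% of all genes. Members lie side by side and share these stretches, so they are not independent of each other.

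The mH2A1.1 list had 3 peaks in the array. None of them overlapped a total mH2A1 peak. The study based its own analysis on peaks shared by both antibodies, so these 3 are outside the set it used. The first, at chr5:140907001-140928000, was 21 kb wide and covered the start and part of the own exon sequence of PCDHAC1, an α C type with 1 count in all. The second, at chr5:141279001-141291000, was 12 kb wide and lay inside TAF7 as GENCODE 44 places it, between the β and γ clusters. The third, at chr5:141486001-141498000, was also 12 kb wide and covered the start of PCDHGC5, an own exon of PCDHGC4 and the first γ constant exon. Its edge lay 1004 bp from the start of PCDHGC4. The 2 start sites in peaks were thus among the 5 C types, and none was among the 48 other members, a pattern seen in 1 library and chosen after its values were known.

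The 3 total mH2A1 peaks of the array lay elsewhere and were 3 kb wide each. Those at chr5:141297001-141300000 and chr5:141318001-141321000 lay inside TAF7 and over its start at the 5′ end, respectively, and that at chr5:141507001-141510000 lay before the last γ constant exon, over an annotated own exon of PCDHGC3. No α gene had a total mH2A1 peak anywhere along its length.

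The β cluster had no peak of either list. It lay within a stretch of 351 kb without an mH2A1.1 peak, chr5:140928001-141279000, in which 17 members start, and within a stretch of 579 kb without a total mH2A1 peak, chr5:140718001-141297000, in which 31 members start. The median distance between neighbouring peaks was 24 kb for mH2A1.1 and 27 kb for total mH2A1. By number, stretches at least as long made up 4.27% of all those between neighbouring mH2A1.1 peaks and 3.19% of those between total mH2A1 peaks. By length their share of the genome was larger, since each is far longer than the median. Of the members with the most reads, PCDHB13 started 65.1 kb and PCDHGB2 69.0 kb from the nearest mH2A1.1 peak, and PCDHGA11 started 65.0 kb from one. The median distance was 72.8 kb over the members and 4.51 kb over all genes of the count tables. All these distances are from start sites. As annotated, γ genes run to the constant exons, so the mH2A1.1 peak over PCDHGC5 lay within the span of PCDHGB2 and PCDHGA11. The same held for the total mH2A1 peak over an own exon of PCDHGC3. The mH2A1.1 peak over PCDHAC1 likewise lay within the annotated span of the numbered α genes.

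By length, peaks covered less of the array than of its flanks. mH2A1.1 peaks covered 9.28% of the α cluster, 0% of the β cluster, 6.58% of the γ cluster and 6.19% of the whole array, against 7.58% of chromosome 5 and 9.40% of the genome. In the 500 kb before and after the array they covered 16.2% and 43.0%. Total mH2A1 peaks covered 0%, 0% and 1.64% of the 3 clusters and 1.24% of the array, against 6.30% of chromosome 5 and 7.87% of the genome, and 15.0% and 37.6% of the flanks. The α and γ values rest on 1 peak each and on where a cluster is taken to end: from the first to the last variable exon, mH2A1.1 peaks covered 11.5% of the α and 3.67% of the γ cluster.

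**Figure D3:**
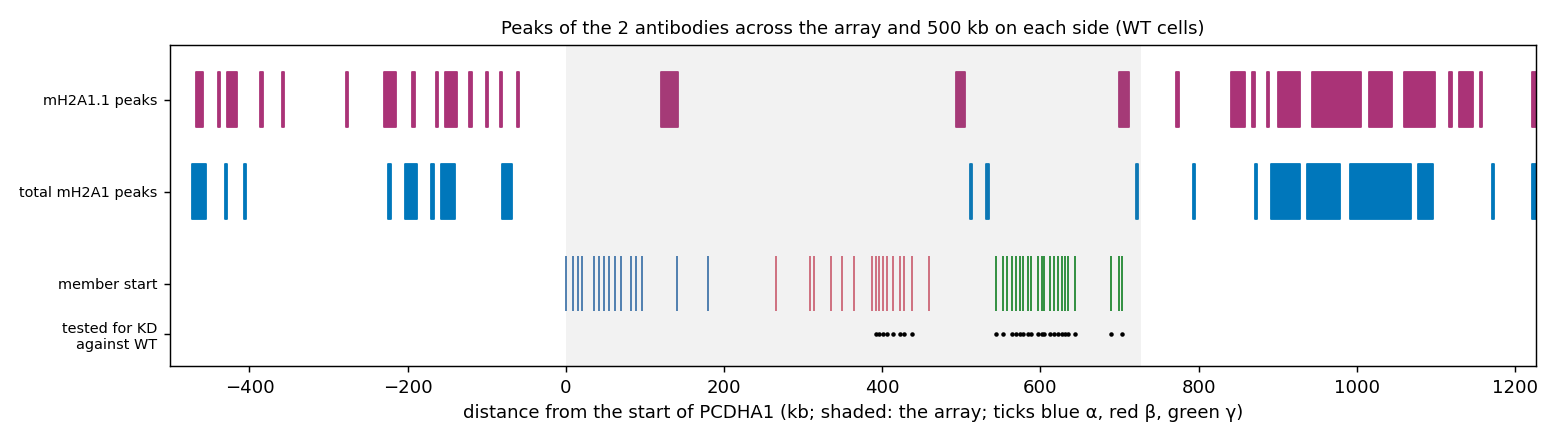
Peaks of mH2A1.1 (upper row) and of total mH2A1 (second row) in WT cells, drawn to scale by distance in kb from the start of PCDHA1, with member starts as ticks and tested members as dots; the array is shaded. The array holds 3 peaks of each list, none of them in the β cluster, and the flanking 500 kb after it are densely covered.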

How the data were processed

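Gene counts in 2 WT and 2 mH2A1.1 KD libraries and peaks of 2 ChIP-seq libraries of MDA-MB-231 cells were used. The deposited counts were made by the authors from stranded total RNA reads with STAR 2.5.1 on GRCh38, a filter on mapping quality, removal of duplicates and htseq-count at default settings, which by default leaves out reads that fall on several genes; without molecular identifiers, duplicate removal also drops distinct molecules. The annotation used for counting is not given in the sources used here. The strand setting in effect could not be read from the tables, so reads of antisense RNA cannot be told apart. Each peak list was called by the authors on 1 library against the input with normR. Its deposited score column is 0 throughout, so a stricter peak threshold could not be tried. The input and promoter capture Hi-C samples were not analysed here.

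For the comparison of KD with WT, edgeR 4.0.16 was used under R 4.3.3 (TMM, filterByExpr, quasi-likelihood test, Benjamini-Hochberg adjustment over 10963 genes), without genes of chromosomes 21, 22 and X. The test was tested on simulated data. The quasi-likelihood test gives no SE of its own. Each SE printed is the absolute log2 fold change divided by the square root of the test's F statistic. CPM used TMM library sizes, and level per kb used exon bases of GENCODE 44 that no other counted gene shares. In all 23061 identifiers were matched to GENCODE 44. DESeq2 1.42.0, other scalings, filters, offsets, windows and overlaps and leaving out each library were alternatives. Common peaks shared at least 1 bp.

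The members and gene lists were chosen with earlier results of these data known. Tested members, the 3 genes of each list with the smallest unadjusted p, members of unusual structure, and neighbours were named. CTCF, SMC1A, STAG2, SLC25A2 and the members shown by promoter stretch alone were named after their values were seen.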

Additional observations from a re-analysis of the deposited data

How the results depend on the processing

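Of the members, 0 were called in the test as reported, with RLE size factors, with chromosomes 21, 22 and X kept and with DESeq2, and 1, PCDHGA11, was called without the filter on low counts, with GC and length offsets and with a replicate block. Leaving out each library in turn gave between 0 and 6 called members and between 0 and 23 called genes of the lists, the highest counts without KD replicate 1, where the lone KD library is assumed to vary like the WT libraries. Over all genes, 0 of 10963 were called in the test as reported, although 2540 had an unadjusted p under 0.05, and DESeq2 called 874 of 7765. GC and length offsets called 588, no filter 2139, and leaving out a library between 2 (without WT replicate 1) and 4744 (without KD replicate 1). Of the genes of the lists, DESeq2 called 3, the fit without a filter 8 and the fit with GC and length offsets 4. The cause of these differences was not tested.

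The replicate numbers do not mark a shared origin in the labels, and deviations of same-numbered libraries correlated at 0.25 over genes with only 2 pairs, so the numbers were not taken to pair the libraries. With the replicate block, 1 member, 10 genes of the lists and 2208 of 10963 genes were called.

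The log2 fold changes of all 28 tested members kept their sign with DESeq2, RLE size factors, no filter, the 3 chromosomes kept and the replicate block. With GC and length offsets, 24 kept it, and PCDHGB1 went to −0.23, PCDHGB2 to −0.16, PCDHGB6 to −0.036 and PCDHGC3 to −0.13. Without 1 library, signs turned for the following, given as lowest and highest: PCDHB8 −0.21 and 0.69, PCDHB16 −0.16 and 0.025, PCDHB12 −1.38 and 0.078, PCDHGA1 −0.53 and 0.56, PCDHGA2 −1.60 and 0.63, PCDHGB1 −0.012 and 0.045, PCDHGB2 −0.13 and 0.20, PCDHGA5 −0.077 and 0.075, PCDHGA6 −0.69 and 0.17, PCDHGB4 −0.60 and 0.069, PCDHGA8 −0.33 and 0.30, PCDHGB5 −1.86 and 0.21, PCDHGB6 −0.21 and 0.30, PCDHGB7 −0.32 and 0.36, and PCDHGC3 −0.32 and 0.81. The log2 ratio of summed γ counts ranged from −0.17 to 0.022, and that of β counts from −0.41 to −0.10.

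Start sites in peaks numbered 2, 0 and 0 for mH2A1.1, total mH2A1 and common peaks at each window and overlap tried. From the first to the last variable exon, mH2A1.1 peaks covered 11.5% of the α and 3.67% of the γ cluster, and total mH2A1 peaks 0% of the γ cluster. Over members' exons alone the values were 2.36%, 6.01% and 0.514%. Low counts limit the test: with a median SE of 0.36 among tested members, a fold change of 1.5 lay within 2 SE for a typical member, and α genes could not be tested.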
